A study of Homo sapiens with 16 samples.

Results

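The genes followed here encode inhibitors of cyclin-dependent kinases (CDKN1A, CDKN1B, CDKN1C, CDKN2C and CDKN2D), the p53 ubiquitin ligase MDM2, and the growth arrest and DNA damage proteins GADD45A, GADD45B and GADD45G. They were found through the RefSeq accessions of the array probes, which gave 14 probes for 9 genes, of 50599 gene probes and 20503 genes with a matched probe. All 9 genes and all 14 probes passed the filter on signal. Expression was measured in LP-1 cells, an established human multiple myeloma line, transduced by lentivirus with cIAP2 and eGFP (LP-1-cIAP2-eGFP) or with eGFP alone as the control (LP-1-eGFP), and sorted for eGFP. Each line was left untreated or given 10 nM bortezomib, an inhibitor of the proteasome, for 6 h or 24 h. The 8 conditions had 2 biological replicates apiece, each on its own single-colour Agilent array (16 arrays). All cells thus carried a vector and eGFP, the methods name sorting but no cloning of the lines, and according to them the cIAP2 probe (BIRC3) read the endogenous gene alone, so the arrays do not check the transgene. The paper reports the increase of cIAP2 in these cells from RT-qPCR for mRNA and from western blot for protein.

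Of 8 plasma cell markers, SDC1, TNFRSF17, CD38, IRF4, XBP1 and MZB1 were well above background on all 16 arrays, PRDM1 on 15 and SLAMF7 on 13. The B cell markers MS4A1 and PAX5, the myeloid marker CSF1R and the fibroblast marker COL1A2 were well above background on 0 arrays, while the epithelial marker KRT8 was so on all 16. The T cell markers CD2, CD3D and CD3E passed on 15, 12 and 10 arrays, CD14 on 13, HBB on 5, EPCAM on 2 and COL1A1 on 10. Between 35.45% and 71.08% of the gene spots of an array were well above background. The lowest share was that of 1 array, replicate 1 of LP-1-cIAP2-eGFP cells treated for 24 h, whose log2 median signal before normalization was 3.058 against 5.436 to 6.303 on the other 15 arrays. The replicates of that condition were also the farthest apart: their difference had a probe-wise SD of 1.481, and those of the other conditions lay between 0.4954 and 0.7732. The members' 24 h responses in that line are also given without this array, as are other values that it moved most. In those fits 1 treated array is left, which is assumed to vary like the other groups.

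The CDKN1 proteins p21, p27 and p57 bind complexes of cyclins with CDKs and block the cell cycle at several points, whereas the CDKN2 (INK4) proteins bind CDK4 and CDK6 and keep them from D-type cyclins. CDKN1A, MDM2 and GADD45A are classical targets of p53, and MDM2 marks p53 for the proteasome. GADD45 proteins bind PCNA, CDK1, p21 and the kinase MAP3K4, and GADD45A is also induced by stress of the endoplasmic reticulum, to which plasma cells and myeloma cells are prone. Several of the proteins, p21, p27 and MDM2 among them, are themselves degraded by the proteasome, so RNA and protein need not move together, and the arrays measured RNA alone.

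Within the GADD45 family, GADD45A rose with bortezomib at both times in both lines, GADD45G rose at 24 h alone, and GADD45B did not pass the test in any comparison. On the log2 scale used throughout, GADD45A read 11.36 and 10.67 in untreated LP-1-eGFP cells at 6 h and 12.88 and 12.55 with bortezomib. At 24 h it read 11.16 and 10.88 without and 14.30 and 14.14 with the drug. Treated arrays lay above every untreated array of the line at each time, and higher at 24 h than at 6 h. In LP-1-cIAP2-eGFP cells GADD45A read 11.12 and 10.78 untreated and 12.61 and 12.19 with bortezomib at 6 h, and 10.86 and 10.62 untreated and 15.05 and 14.75 with bortezomib at 24 h. Here too no treated array overlapped with an untreated one.

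The GADD45A change at 6 h was 1.70 (SE 0.265, 3.25-fold) in LP-1-eGFP cells, with an adjusted p of 0.0141 by limma's moderated test with Benjamini-Hochberg adjustment over all probes, which was used for all adjusted p-values. It was 1.45 (2.73-fold, adjusted p = 0.037) in LP-1-cIAP2-eGFP cells. GADD45A was the only member of 9 past an adjusted p of 0.05 at 6 h in either line, where 2.87% of the 16398 genes tested were called in LP-1-eGFP cells and 1.48% in LP-1-cIAP2-eGFP cells. Fits with an array left out kept the filter and the normalization made with all 16 arrays, so leaving out an array changed the model alone. Without the dim array, which bears on the 6 h tests only through the shared estimate of the spread, 3 of 9 members were called at 6 h in each line (CDKN1A and GADD45A higher, CDKN2D lower), where 8.8% and 5.34% of genes were called. At 24 h the change was 3.20 (9.18-fold, adjusted p = 4.99e-05) and 4.16 (17.9-fold, adjusted p = 9.48e-06), or 4.01 (adjusted p = 6.57e-05) without the dim array. The response at 24 h exceeded that at 6 h by 2.10 on average over the lines (adjusted p = 0.000892), a contrast in which 4 of 9 members (with CDKN1B, CDKN2C and GADD45G) and 20.6% of genes were called. Between the untreated lines GADD45A differed by -0.17 (95% interval -0.59 to 0.25, adjusted p = 0.753), and the larger 24 h response of LP-1-cIAP2-eGFP cells, by 0.96 (interval, not adjusted, 0.12 to 1.80), did not pass the test (adjusted p = 0.579; 0.81 without the dim array, adjusted p = 0.695). The call at 6 h in LP-1-eGFP cells was lost when either of the treated 6 h arrays (1.54, adjusted p = 0.148, without replicate 1 and 1.87, adjusted p = 0.0754, without replicate 2) or untreated 6 h replicate 2 (1.36, adjusted p = 0.125) was left out. The call in LP-1-cIAP2-eGFP cells was lost in 10 of the 16 fits with 1 array left out, all but those without an untreated LP-1-eGFP array or a 24 h bortezomib array of LP-1-cIAP2-eGFP cells, with values of 1.24 to 1.66 and adjusted p of up to 0.252 (without bortezomib 6 h replicate 1 of LP-1-cIAP2-eGFP). It was also lost with the normexp background correction (1.34, adjusted p = 0.0726), without the filter on signal (1.45, adjusted p = 0.083) and when the slide was added as a block (1.45, adjusted p = 0.109).

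GADD45G, measured here by its brighter probe, combined a lower level in LP-1-cIAP2-eGFP cells with a late rise in both lines. In LP-1-eGFP cells it read 8.80 and 8.87 untreated and 9.0 and 9.02 with bortezomib at 6 h, and 8.05 and 8.84 untreated and 10.16 and 10.41 with bortezomib at 24 h. In LP-1-cIAP2-eGFP cells the values were 7.41 and 6.89 untreated and 7.38 and 7.60 treated at 6 h, and 7.03 and 6.85 untreated and 10.87 and 10.08 treated at 24 h. The lines did not overlap in 3 of the 4 conditions and did so after 24 h of bortezomib, where the highest and the lowest reading both came from LP-1-cIAP2-eGFP cells, the highest on the dim array. The 24 h response was 1.84 (SE 0.314, 3.59-fold, adjusted p = 0.00242) in LP-1-eGFP cells and 3.53 (11.6-fold, adjusted p = 5.18e-05) in LP-1-cIAP2-eGFP cells, or 3.14 (adjusted p = 0.000205) without the dim array. At 6 h it was 0.17 (95% interval -0.53 to 0.87) and 0.34 (-0.36 to 1.05). The 2 responses at 24 h differed by 1.69 (interval, not adjusted, 0.69 to 2.69), which did not pass the test (adjusted p = 0.384), where 0.104% of all genes were called, and by 1.29 without the dim array (adjusted p = 0.379).

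Between the lines, GADD45G was 1.69 lower in LP-1-cIAP2-eGFP cells untreated at 6 h (log2 fold change -1.69, adjusted p = 0.0183), and the change was -1.50 untreated at 24 h (adjusted p = 0.0361), -1.52 with bortezomib at 6 h (adjusted p = 0.0309) and 0.19 with bortezomib at 24 h (adjusted p = 0.725), or -0.21 (adjusted p = 0.851) without the dim array. GADD45G was the 1 member of 9 called in each of the first 3 of these conditions, in which 4.39%, 4% and 4.74% of genes were called. With bortezomib at 6 h the arrays of the lines were on different slides, so line and slide cannot be told apart there. The second GADD45G probe, well above background on 13 arrays, gave smaller changes: 0.94 (adjusted p = 0.134) and 1.17 (adjusted p = 0.0507) at 24 h in the control and the cIAP2 line, the latter 1.60 (adjusted p = 0.0247) without the dim array, and -1.10 between the untreated lines (adjusted p = 0.041).

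GADD45B, also called MyD118 and a known target of NF-κB, ranged from 13.42 to 14.70 with a median of 14.09 over the 16 arrays. Its 24 h readings were 14.28 and 14.09 untreated and 13.87 and 14.42 with bortezomib in LP-1-eGFP cells, which overlapped, and 14.20 and 14.36 untreated and 14.70 and 14.56 with bortezomib in LP-1-cIAP2-eGFP cells, which did not. The 24 h change was -0.04 (95% interval -0.63 to 0.55, adjusted p = 0.954) in LP-1-eGFP cells and 0.35 (-0.24 to 0.94, adjusted p = 0.341) in LP-1-cIAP2-eGFP cells, or 0.29 (adjusted p = 0.601) without the dim array. These intervals do not reach the size of the GADD45A and GADD45G changes at 24 h in the same cells.

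**Figure D1:**
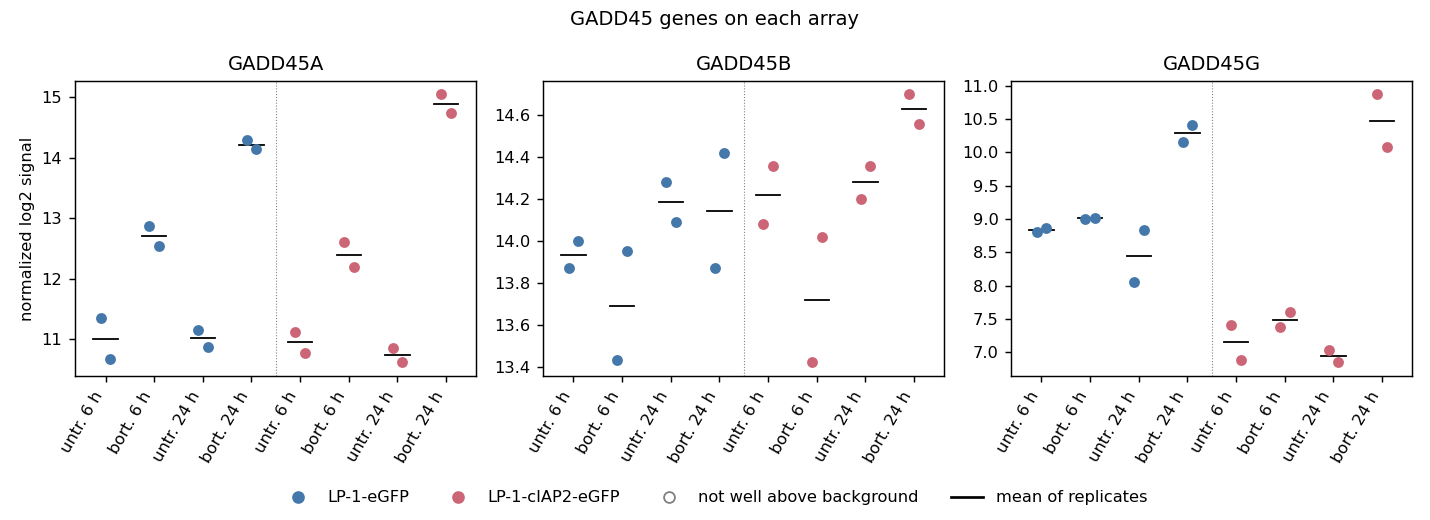
Normalized log2 signal of GADD45A, GADD45B and GADD45G (brightest probe of each) on every array, by line (LP-1-eGFP left of the dotted line, LP-1-cIAP2-eGFP right), treatment (untr., untreated; bort., bortezomib) and time; points are arrays and bars the mean of 2 replicates, and each panel has its own axis. GADD45A rises to 14.14 or more on all 4 treated arrays at 24 h, GADD45B stays between 13.42 and 14.70, and GADD45G starts lower in LP-1-cIAP2-eGFP cells and is at 10.08 or more on all 4 treated arrays at 24 h.

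The sequences around the start sites of GADD45G and GADD45B are shown since the pair belongs to 1 family and only the former rose at 24 h. They are RefSeq windows of 300 bases on GRCh38.p14 (250 before and 50 after the start), which were available for 7 of the 9 members. The set of windows used here had no entry for GADD45A or CDKN1C. Both windows lie on the plus strand, GADD45G at chr9:89604762-89605061 and GADD45B at chr19:2475877-2476176, and capitals mark matches to the motifs named after them.
GADD45G: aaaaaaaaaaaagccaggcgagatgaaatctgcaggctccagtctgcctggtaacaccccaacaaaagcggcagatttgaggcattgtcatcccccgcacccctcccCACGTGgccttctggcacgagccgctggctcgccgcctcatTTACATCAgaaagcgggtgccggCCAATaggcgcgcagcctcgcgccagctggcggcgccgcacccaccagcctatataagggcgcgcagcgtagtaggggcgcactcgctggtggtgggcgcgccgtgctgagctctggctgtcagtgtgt
GADD45B: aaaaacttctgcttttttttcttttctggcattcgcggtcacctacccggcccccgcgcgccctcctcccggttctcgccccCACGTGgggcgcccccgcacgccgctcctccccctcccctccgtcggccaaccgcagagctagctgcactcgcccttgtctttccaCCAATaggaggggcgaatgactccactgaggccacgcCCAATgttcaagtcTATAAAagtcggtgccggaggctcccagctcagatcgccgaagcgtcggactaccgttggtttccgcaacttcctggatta
Searched on both strands were the TATA box (TATAAA), the CCAAT box (CCAAT), the E-box (CACGTG), the CRE (TGACGTCA), the AP-1 site (TGACTCA), the C/EBP-ATF composite element (TGATGNAA), the heat shock element (GAA, TTC and GAA, each parted by any pair of bases) and the p53 response element, the last with at most 3 mismatches and its core C and G bases intact. The GADD45G window held an E-box, a CCAAT box and, on the minus strand and read here as TTACATCA, a C/EBP-ATF composite element. The GADD45B window held an E-box, 2 CCAAT boxes and a TATA box. The GADD45G window also holds the letters tatataag, which the search for the exact letters TATAAA does not count. The 2 lists thus do not show that GADD45G lacks a TATA box. Of all 35114 windows, 7.26% held the E-box, 34.6% the CCAAT box, 11.5% the TATA box and 3.62% the composite element. A match is a match of letters in this window, and binding was not measured.

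Among the CDK inhibitors, CDKN1C, which encodes p57, was higher in LP-1-cIAP2-eGFP cells, and its change with the drug did not pass the test with all arrays. In LP-1-eGFP cells it read 12.34, 11.88, 12.16 and 12.05 on the untreated arrays and 11.73, 11.41, 11.17 and 12.06 on the treated ones. In LP-1-cIAP2-eGFP cells it read 13.40, 13.08, 13.27 and 13.28 untreated and 12.73, 12.57, 12.63 and 12.69 treated. The lowest array of LP-1-cIAP2-eGFP cells thus lay above the highest of LP-1-eGFP cells. CDKN1C was 1.15 higher (SE 0.197, 2.22-fold, adjusted p = 0.00606) between the untreated lines and 1.11 higher (SE 0.139, adjusted p = 0.00048) on average over treatment and time. With bortezomib its change was -0.54 and -0.59 at 6 h and -0.49 and -0.62 at 24 h in the control and the cIAP2 line, none past the test (adjusted p of 0.129 or more; the last was -0.58 without the dim array, adjusted p = 0.274), and -0.55 (adjusted p = 0.0539) at 24 h on average over the lines, where 4 of 9 members (CDKN1B, CDKN2C, GADD45A and GADD45G) and 44.2% of genes were called. The 24 h change in LP-1-eGFP cells turned on which treated array was kept: it was -0.94 and passed the test (adjusted p = 0.0313) without bortezomib 24 h replicate 2, and -0.04 (adjusted p = 0.965) without replicate 1. In single conditions the line difference of CDKN1C was 1.04 to 1.17 (adjusted p of 0.0596 to 0.0771).

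For the difference averaged over treatment and time, a gene was called at an adjusted p under 0.001 and a change of more than 2-fold between the untreated lines, after the study's own 3-way analysis. By this rule 2 of the 9 members were called, CDKN1C as higher and GADD45G (-1.13, SE 0.157, adjusted p = 0.000899) as lower in LP-1-cIAP2-eGFP cells, where 3.39% of all genes were called. Both lay near the threshold. The CDKN1C call was lost in 12 of the 16 fits with 1 array left out, all but those without a 24 h bortezomib array (1.05 to 1.16, adjusted p of 0.00118 to 0.00221 in the 12). The GADD45G call was lost in 13 of 16, all but those without a 24 h bortezomib array of LP-1-cIAP2-eGFP cells or untreated 24 h replicate 1 of LP-1-eGFP cells (-1.03 to -1.19, adjusted p of 0.00174 to 0.00381 in the 13). Since 6 of the 8 arrays of slide 1 were from LP-1-cIAP2-eGFP cells, the values are also given within slides, which allowed 1 array against 1 or 2. With bortezomib at 6 h no such value exists. All LP-1-cIAP2-eGFP arrays of that treatment and time were on slide 1 and all LP-1-eGFP arrays on slide 2, so line and slide cannot be told apart. CDKN1C was higher in LP-1-cIAP2-eGFP cells by 1.52 (slide 1) and 0.74 (slide 2) untreated at 6 h, by 1.17 (slide 2) untreated at 24 h and by 1.49 (slide 1) with bortezomib at 24 h. GADD45G differed by -1.47 and -1.91, -1.59 and 0.32 in the same order. With the slide as a block the averages were 1.24 (adjusted p = 0.00206) for CDKN1C and -1.20 (adjusted p = 0.00682) for GADD45G, and neither was called.

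CDKN1A, which encodes p21, was dim. Its probe was well above background on 8 of 16 arrays, and the spot of LP-1-eGFP bortezomib 24 h replicate 1 was left out as non-uniform or an outlier, so that condition rests on 1 array. In LP-1-eGFP cells it read 3.52 and 3.11 untreated and 4.89 and 4.72 with bortezomib at 6 h, 4.68 and 4.34 untreated at 24 h and 5.13 with bortezomib at 24 h. In LP-1-cIAP2-eGFP cells it read 4.94 and 5.15 untreated and 6.79 and 6.85 treated at 6 h, and 6.28 and 5.83 untreated and 5.74 (dim array) and 7.59 treated at 24 h. At 6 h the untreated readings of both lines were not well above background, and within each line the treated readings did not overlap with them. Bounded by the lowest signal well above background on each untreated array, CDKN1A was at least 3.08-fold higher with bortezomib at 6 h in LP-1-cIAP2-eGFP cells (adjusted p = 0.175, or 0.00676 without the dim array). In LP-1-eGFP cells 1 of 2 treated arrays was well above background, so no bound is given (adjusted p = 0.223, or 0.00892 without the dim array). Averaged over the lines, the 6 h response of CDKN1A passed the test (adjusted p = 0.0292), together with those of CDKN2D and GADD45A, 3 of 9 members where 8.38% of genes were called. The 24 h change of CDKN1A in LP-1-cIAP2-eGFP cells was 0.61 (adjusted p = 0.388) with both treated arrays. It was 1.53 without the dim array and -0.32 without the other treated array, each from 1 treated array. Its sign thus depended on which treated array was kept. Between the untreated lines CDKN1A was higher in LP-1-cIAP2-eGFP cells (adjusted p = 0.0233), with 2 of 4 arrays well above background against 1 of 4. CDKN1A passed the filter on signal only through 2 conditions of LP-1-cIAP2-eGFP cells (bortezomib 6 h and untreated 24 h), the line in which it was higher, so this call is no independent support for the difference. It was 1 of 3 members called there (CDKN1A and CDKN1C higher, GADD45G lower), where 10.8% of genes were called.

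CDKN2C, which encodes p18, fell at 24 h in both lines and changed little at 6 h. It read 16.35 and 16.58 untreated and 15.85 and 15.79 with bortezomib at 24 h in LP-1-eGFP cells, and 16.75 and 16.59 untreated and 15.83 and 16.05 treated in LP-1-cIAP2-eGFP cells. No treated array at 24 h overlapped with any other of the 16, and at 6 h treated and untreated arrays overlapped in both lines. The fall was by 0.64 (1.56-fold, adjusted p = 0.0092) and by 0.73 (1.66-fold, adjusted p = 0.00379), or by 0.62 (adjusted p = 0.0106) without the dim array. In LP-1-eGFP cells the call was lost without untreated 24 h replicate 2 (-0.52, adjusted p = 0.067) or bortezomib 24 h replicate 2 (-0.61, adjusted p = 0.0516). In LP-1-cIAP2-eGFP cells it was lost when each array was weighted by its estimated quality (array weights; -0.73, adjusted p = 0.118). The lowest weight of all arrays (0.121) fell on bortezomib 24 h replicate 2 of these cells, not on the dim array. Results with array weights thus do not stand for leaving out the dim array.

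CDKN2D, which encodes p19, was lower with bortezomib at 6 h in both lines. It read 9.72 and 9.97 untreated and 8.99 and 9.08 treated in LP-1-eGFP cells, and 9.88 and 10.08 untreated and 9.01 and 9.27 treated in LP-1-cIAP2-eGFP cells. The changes were -0.81 (adjusted p = 0.0819) and -0.84 (adjusted p = 0.0967) in the single lines. Both passed the test without either 24 h bortezomib array of LP-1-cIAP2-eGFP cells (adjusted p = 0.0213 and 0.0256), and with the replicate number as a block (adjusted p = 0.0153 and 0.0186), and CDKN2D fell by 0.82 (1.77-fold, adjusted p = 0.009) on average over both. At 24 h it read 10.59 and 10.74 untreated and 10.71 and 10.87 treated in LP-1-eGFP cells, which overlapped (0.12, adjusted p = 0.763), and 10.52 and 10.81 untreated and 9.72 and 10.20 treated in LP-1-cIAP2-eGFP cells, which did not (-0.70, adjusted p = 0.0252). The difference between these responses was -0.83 (interval, not adjusted, -1.46 to -0.20) and did not pass the test (adjusted p = 0.519; -0.59 without the dim array, adjusted p = 0.569). In untreated cells CDKN2D was 0.75 higher at 24 h than at 6 h (95% interval 0.44 to 1.07, all 4 arrays above all 4), with an adjusted p of 0.318 and an unadjusted p of 0.000359 by limma's test. The call at 24 h in LP-1-cIAP2-eGFP cells was lost without the dim array (-0.47, adjusted p = 0.115) and without untreated 24 h replicate 2 (-0.56, adjusted p = 0.159). It was also lost with the normexp background correction, where the change was -0.21 (adjusted p = 0.477), without the filter on signal (-0.70, adjusted p = 0.0562), when the slide was added as a block (-0.65, adjusted p = 0.0643) and with array weights (-0.70, adjusted p = 0.342).

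CDKN1B, which encodes p27, had the narrowest range of the 9 genes. It ranged from 12.42 to 13.11 over all arrays, and at 24 h in LP-1-eGFP cells it read 12.96 and 12.93 untreated and 12.47 and 12.42 with bortezomib, the 2 lowest readings of the series. The fall there was by 0.50 (SE 0.13, 1.41-fold, adjusted p = 0.0213), against -0.07 (adjusted p = 0.706, or 0.02 without the dim array, adjusted p = 0.949) in LP-1-cIAP2-eGFP cells, and the difference of 0.43 did not pass the test (adjusted p = 0.614). The second CDKN1B probe gave -0.05 (adjusted p = 0.894) and 0.43 (adjusted p = 0.0624) in the same 2 comparisons, the latter 0.54 (adjusted p = 0.0315) without the dim array. The call was lost when any of the 4 arrays of LP-1-eGFP cells at 24 h was left out, with adjusted p of 0.0786 (-0.49) and 0.0714 (-0.51) without untreated replicates 1 and 2, and of 0.077 (-0.53) and 0.0949 (-0.47) without bortezomib replicates 1 and 2. It was also lost without the filter on signal (-0.50, adjusted p = 0.0795) and with both CDKN1B probes averaged (-0.27, adjusted p = 0.227).

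**Figure D2:**
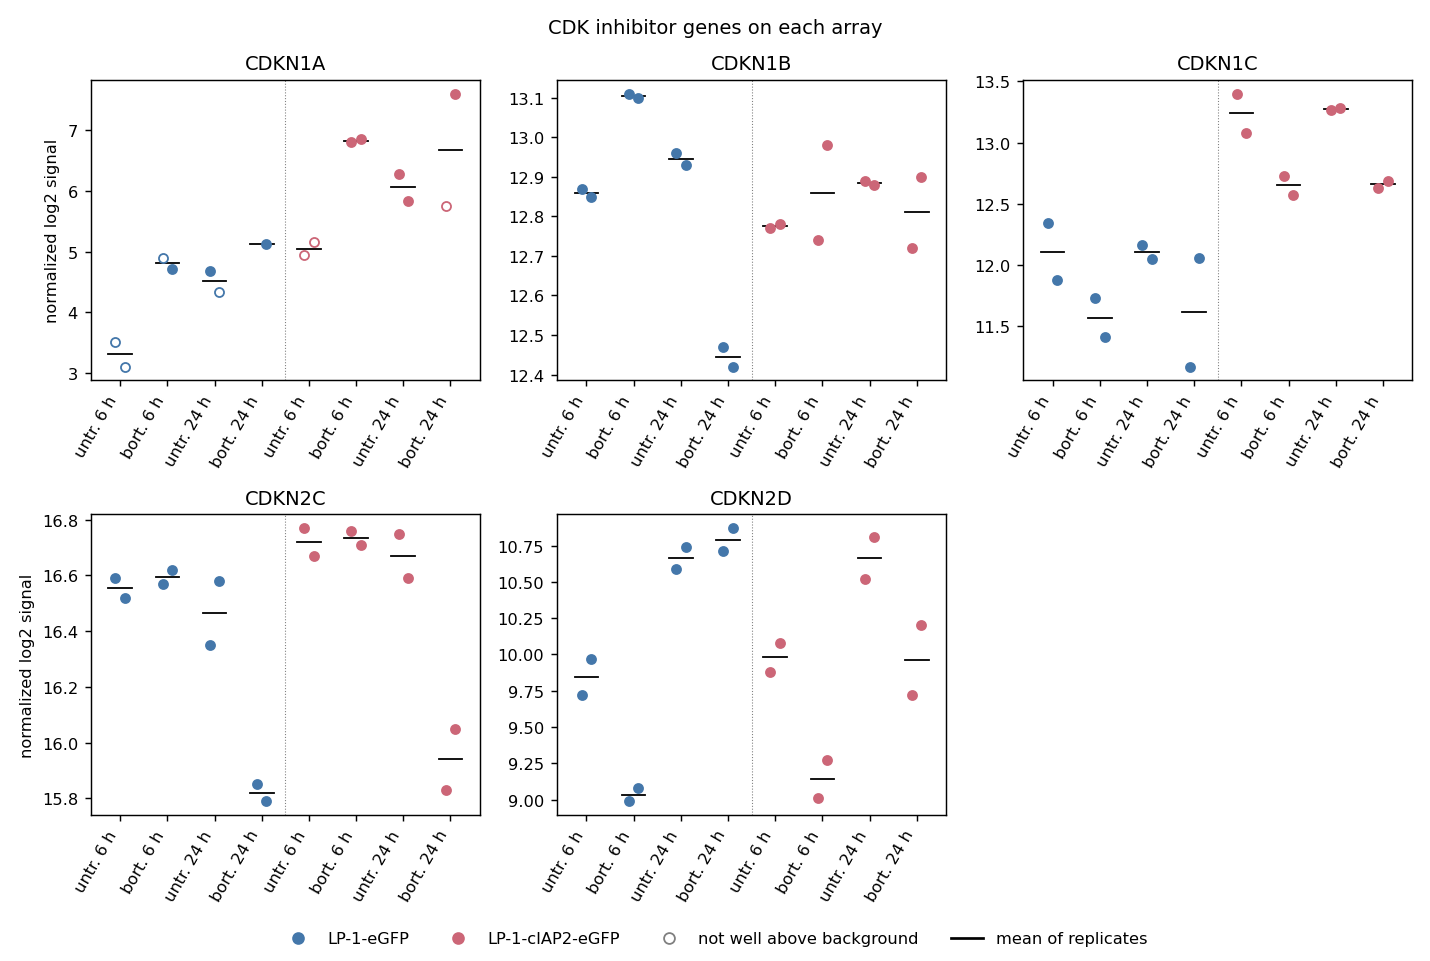
Normalized log2 signal of the 5 CDK inhibitor genes (brightest probe of each) on every array, drawn as for the GADD45 genes, each panel with its own axis; open points were not well above background, and 1 CDKN1A spot is missing. CDKN1C is higher on every LP-1-cIAP2-eGFP array, CDKN2C is lowest on the 4 treated arrays at 24 h, and CDKN2D is lowest on the 4 treated arrays at 6 h.

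MDM2 is measured by 4 probes, and they did not move together. The brightest read 9.50 and 9.19 untreated and 9.22 and 9.35 with bortezomib at 24 h in LP-1-eGFP cells, and 9.29 and 9.48 untreated and 10.45 (dim array) and 9.88 treated in LP-1-cIAP2-eGFP cells. Treated and untreated readings overlapped in the former line and not in the latter, where the change of 0.77 (SE 0.194, 1.71-fold) passed the test (adjusted p = 0.0147). Without the dim array it was 0.49 (adjusted p = 0.0518), without untreated 24 h replicate 1 it was 0.68 (adjusted p = 0.0952), and with array weights it was 0.77 (adjusted p = 0.155). In the same comparison the other 3 MDM2 probes gave -0.31, -0.45 and -0.75, none past the test (adjusted p of 0.135 or more), and on the dim array all 3 were not well above background. Without it they gave -0.33, 0.24 and -0.23 (adjusted p of 0.284 or more). In LP-1-eGFP cells at 24 h the brightest MDM2 probe gave -0.06 (adjusted p = 0.901) and the others -0.20, -0.46 and, for A_19_P00810040, -0.67, which passed the test (adjusted p = 0.0205). Averaged over its probes, the MDM2 change was -0.18 (adjusted p = 0.574) at 24 h in LP-1-cIAP2-eGFP cells, so the sign for this gene depends on the probe. With the dim array, MDM2 (0.87, adjusted p = 0.03) and CDKN2D (-0.83, adjusted p = 0.0401) were the 2 of 9 members that differed between the lines under bortezomib at 24 h, where 8.06% of genes were called. Without that array neither was called (0.59, adjusted p = 0.075, and -0.60, adjusted p = 0.13). For CDKN1A the line difference there was then 2.46, from 1 array (7.59) against 1 (5.13). CDKN1A passed the filter on signal only through conditions of LP-1-cIAP2-eGFP cells, so this value is no independent support for a difference.

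**Figure D3:**
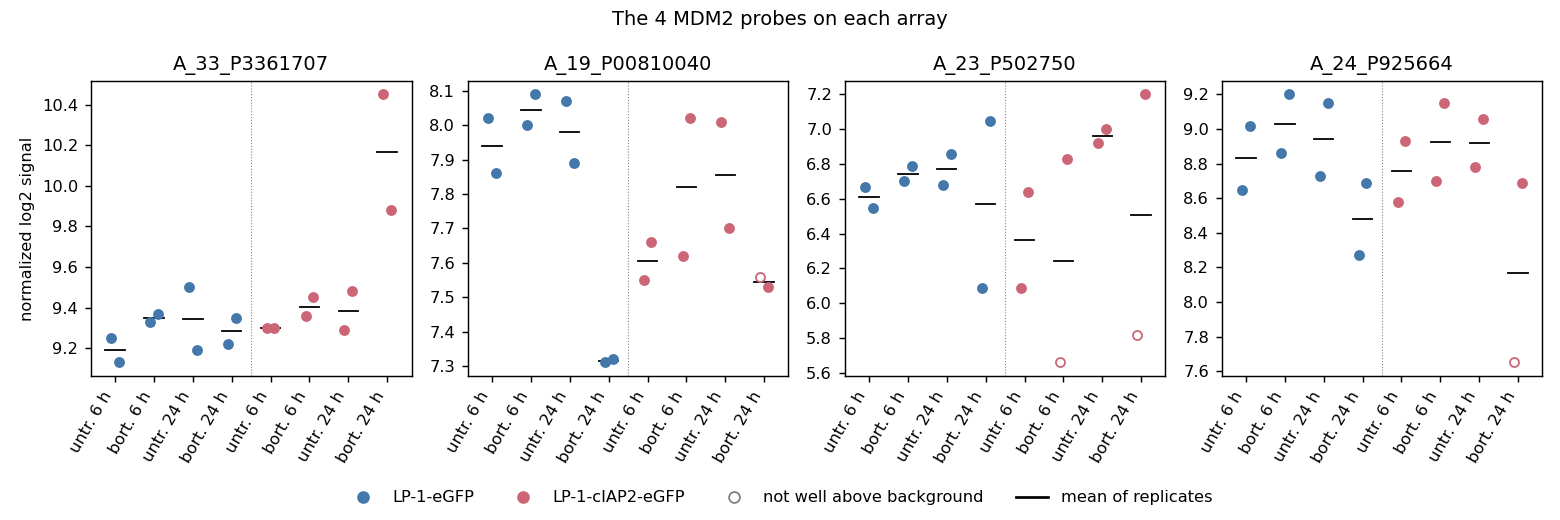
Normalized log2 signal of the 4 MDM2 probes on every array, drawn as for the GADD45 genes, with the brightest probe (A_33_P3361707) first and each panel on its own axis. Under bortezomib at 24 h in LP-1-cIAP2-eGFP cells the first probe reads 10.45 and 9.88, above its other readings, which none of the other 3 probes shares on both arrays.

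The window of an internal MDM2 start site is shown since it holds a p53 response element before the start. It lies at chr12:68808767-68809066 on the plus strand of GRCh38.p14, and capitals mark 2 CCAAT boxes (read as ATTGG), an AP-1 site and the p53 response element.
MDM2: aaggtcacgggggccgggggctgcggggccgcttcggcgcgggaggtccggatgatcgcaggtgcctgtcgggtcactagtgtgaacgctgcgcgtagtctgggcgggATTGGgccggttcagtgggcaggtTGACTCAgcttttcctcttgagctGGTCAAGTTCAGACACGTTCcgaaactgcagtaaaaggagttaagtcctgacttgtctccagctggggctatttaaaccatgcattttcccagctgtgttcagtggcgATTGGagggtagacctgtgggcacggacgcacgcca
Of all windows, 1.12% held the p53 response element and 4.95% the AP-1 site. The CDKN1B window also held a match to the p53 element, and the CDKN1A window held none of the 8 motifs. The known p53 elements of CDKN1A lie farther upstream, outside this window.

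In all, 4 of the 9 members passed the test at 24 h in LP-1-eGFP cells (GADD45A and GADD45G higher, CDKN1B and CDKN2C lower), where 28.4% of all genes were called, and 5 of 9 in LP-1-cIAP2-eGFP cells (GADD45A, GADD45G and MDM2 higher, CDKN2C and CDKN2D lower), where 36.4% were called. Without the dim array the latter count was 4, with CDKN1A, from 1 treated array (7.59), in place of MDM2 and CDKN2D, where 35.4% of genes were called. The median change of the 9 members was -0.04 and 0.35, beside medians over all genes of -0.03 and -0.16. The difference between the lines in the response did not pass the test for any member at 6 h, where 0% of genes were called and 253 had an unadjusted p under 0.05 by limma, or at 24 h, where 1429 had one. Between untreated cells at 6 h and at 24 h, 0 of 9 members passed the test, where 0.0122% of genes were called and 953 had an unadjusted p under 0.05 by limma. These are bulk RNA measurements, in which a change of transcripts per cell and a change in the mix of living and dying cells cannot be told apart.

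**Figure D4:**
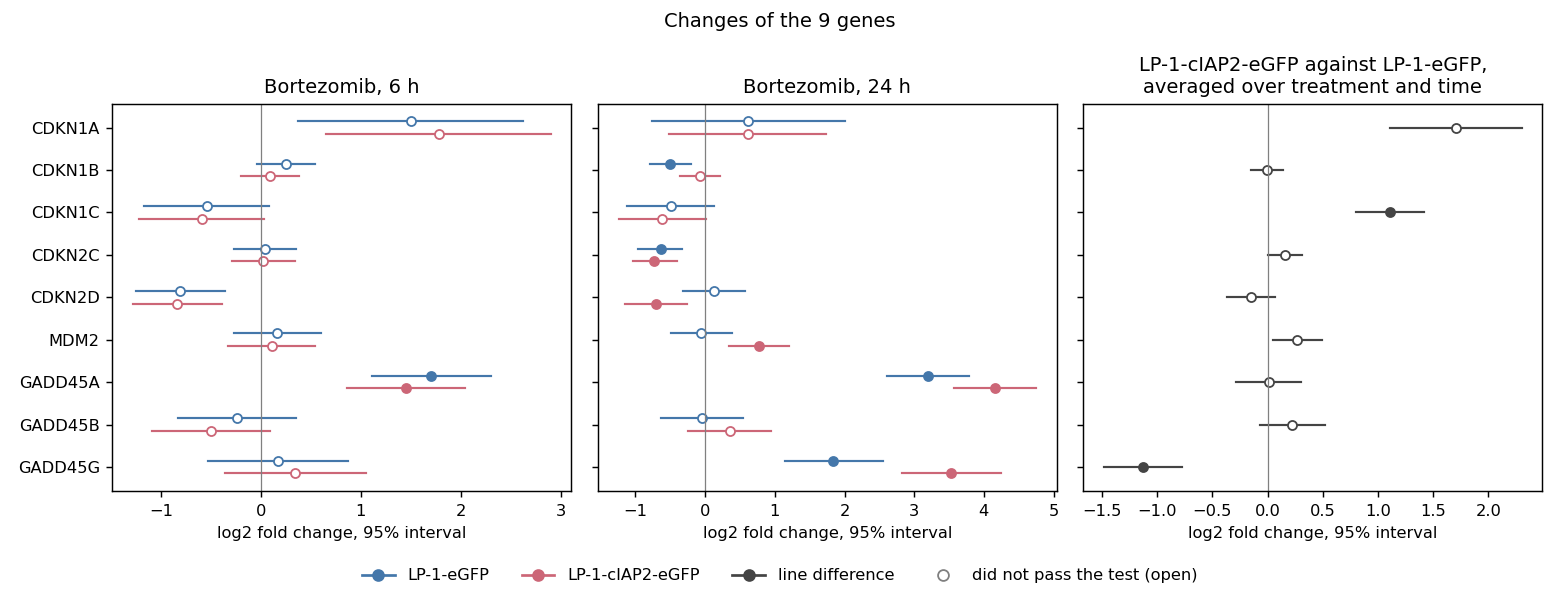
Log2 fold change (points) with its 95% interval (lines, not adjusted) for the brightest probe of each of the 9 genes, for each line under bortezomib (6 h, 24 h) and between the lines on average; filled points passed the test of that comparison. GADD45A is the only filled gene at 6 h, GADD45A, GADD45G and CDKN2C are filled in both lines at 24 h, and CDKN1C and GADD45G are filled between the lines. CDKN1A between the lines rests in part on readings that were not well above background.

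The other genes of these pathways were counted in 8 lists, to be read beside the 13.3% of all genes that rose and 15.1% that fell at 24 h in LP-1-eGFP cells and the 14.4% and 22% in LP-1-cIAP2-eGFP cells. The former shares were 18.9% and 21.9% and the latter 17.1% and 18.3% without the dim array, and without untreated 24 h replicate 1 of LP-1-eGFP cells the former were 10.3% and 12.4%. In each pair of values below, that of LP-1-eGFP cells comes first. Of 25 p53 target genes tested, 5 rose and 3 fell at 24 h in LP-1-eGFP cells, and 5 rose and 7 fell in LP-1-cIAP2-eGFP cells, with list medians of 0.11 and -0.23. Without the dim array the counts were 7 and 5 in LP-1-eGFP cells and 6 and 5 in LP-1-cIAP2-eGFP cells, where the median became 0.23, and without untreated 24 h replicate 1 of LP-1-eGFP cells they were 4 and 3 in that line, with a median of 0.23. The 5 that rose were the same in both lines, PMAIP1, SESN2, BBC3, PLK3 (in LP-1-eGFP cells 0.80, adjusted p = 0.0105, and not called without that control array, 0.67, adjusted p = 0.0676) and TNFRSF10B, of which BBC3, PLK3 and TNFRSF10B were named after their values were seen. PMAIP1 (NOXA), a BH3-only inducer of apoptosis, read 11.94 and 10.18 untreated and 15.09 and 14.73 with bortezomib at 24 h in LP-1-eGFP cells, and 10.93 and 10.62 untreated and 15.11 and 15.05 treated in LP-1-cIAP2-eGFP cells. It rose by 3.85 (adjusted p = 0.000741) and 4.31 (adjusted p = 0.000299). SESN2, a stress-induced regulator of TORC1 that ATF4 also induces, was the larger of the 2 rises at 6 h shared by both lines, by 3.39 (adjusted p = 0.0181) and 3.11 (adjusted p = 0.0355), with BBC3 the other.

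Of the p53 targets that fell at 24 h, BTG2, an antiproliferative gene, fell by 2.33 (adjusted p = 0.000148) and 2.05 (adjusted p = 0.000224), and AEN, an apoptosis-enhancing nuclease, by 1.30 (adjusted p = 0.000365) and 0.61 (adjusted p = 0.0174) in the control and the cIAP2 line. FAS, the death receptor, was the 1 gene of the 8 lists called between the lines with all arrays, a count that changed without the dim array. It ranged from 12.34 to 13.11 in LP-1-eGFP cells and from 10.47 to 11.21 in LP-1-cIAP2-eGFP cells, and was lower by 1.80 in the latter (log2 fold change -1.80, adjusted p = 5.33e-07). Of 13 p53 regulators, 0 rose and 4 fell in LP-1-eGFP cells and 0 rose and 3 fell in LP-1-cIAP2-eGFP cells at 24 h. Without untreated 24 h replicate 1 of LP-1-eGFP cells, 1 rose and 3 fell in that line, the riser being MDM4 (0.96, adjusted p = 0.0217, against 0.26, adjusted p = 0.732, with that array; named after its values were seen). Among them were USP7, which removes ubiquitin from MDM2 and p53 (-0.84 and -0.97), and the checkpoint kinase CHEK2 (-0.98 and -1.40).

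Cell cycle genes fell at 24 h. Of 15 genes of cell cycle activity, 14 fell in LP-1-eGFP cells, and in LP-1-cIAP2-eGFP cells 14 fell and 1 rose, RRM2 (0.76, adjusted p = 0.009; named after its values were seen), with list medians of -1.01 and -1.59. PLK1, a mitotic kinase, read 12.52 and 12.68 untreated and 10.10 and 10.29 treated at 24 h in LP-1-eGFP cells, and 12.78 and 12.64 untreated and 8.88 (dim array) and 9.67 treated in LP-1-cIAP2-eGFP cells, changes of -2.41 and -3.44. TOP2A, the topoisomerase of dividing cells, fell by 1.94 (adjusted p = 0.000647) and 3.19 (adjusted p = 3.37e-05). At 6 h, 0 of the 15 passed the test in either line.

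Of 16 cyclin, CDK and pocket protein genes, the partners of the CDK inhibitors, 12 and 11 fell and 0 rose, and 10 fell in both lines. CCND2, cyclin D2, read 15.18 and 14.77 untreated and 11.64 and 11.85 with bortezomib at 24 h in LP-1-eGFP cells, and 15.51 and 15.17 untreated and 12.31 and 12.52 treated in LP-1-cIAP2-eGFP cells. It fell by 3.23 (adjusted p = 1.33e-05) in LP-1-eGFP cells and fell by 2.93 (adjusted p = 9.7e-06) in LP-1-cIAP2-eGFP cells, and the log2 fold change of the transcription factor E2F2 was -2.23 (adjusted p = 5.89e-05) and -2.97 (adjusted p = 1.04e-05). Of 3 other CDK inhibitor genes, CDKN2A (-0.64 and -0.43) and CDKN3, a phosphatase of CDK2 (-1.17 and -1.69), fell in both lines. Of 12 genes for the turnover and transcription of p21 and p27, 1 rose and 5 fell in LP-1-eGFP cells and 1 rose and 4 fell in LP-1-cIAP2-eGFP cells. The riser was the transcription factor KLF6 (1.45 and 2.42), and among those that fell were SKP2, which marks p27 for degradation (-1.61 and -1.40), and SP1, a transcription factor of CDKN1A (-0.82 and -0.74). Without the dim array the counts in LP-1-cIAP2-eGFP cells were 1 fall among the other CDK inhibitors (CDKN2A was not called, at -0.29, adjusted p = 0.152), 2 among the p53 regulators, and 3 rises and 4 falls among the turnover genes, where SKP2 was at -0.86 (adjusted p = 0.0305). Without untreated 24 h replicate 1 of LP-1-eGFP cells, 1 turnover gene rose and 3 fell in that line.

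Around the GADD45 genes, 9 other genes named for growth arrest and DNA damage or induced by ATF4 gave 6 rises in the control and 3 in the cIAP2 line at 6 h, and 6 and 7 rises with 0 and 1 falls at 24 h, with list medians of 1.32 and 2.18 at 24 h. The gene that fell was GADD45GIP1 (-0.60, adjusted p = 0.044; named after its values were seen), which was not called without the dim array. DDIT3 (GADD153, CHOP) rose by 2.81 and 2.66 at 6 h and by 3.47 (adjusted p = 0.000894) and 4.70 (adjusted p = 0.000127) at 24 h. ATF3, a stress-induced transcription factor, rose by 3.41 and 2.91 at 6 h and by 4.38 (adjusted p = 0.000406) and 6.96 (adjusted p = 2.55e-05) at 24 h. In LP-1-eGFP cells untreated at 24 h, replicate 1 stood apart for these genes, with DDIT3 at 11.91 against 9.94, ATF3 at 11.42 against 9.45, SESN2 at 11.51 against 9.46 and PMAIP1 at 11.94 against 10.18. GADD45A (11.16 against 10.88) and GADD45G (8.05 against 8.84) did not share this in the same pair. Without that array the 24 h changes in LP-1-eGFP cells were 4.46 for DDIT3, 5.36 for ATF3, 3.15 for SESN2 and 4.73 for PMAIP1, and 7 of the 9 listed genes rose, with a median of 2.04. Of 7 GADD45 partner kinases, 2 rose and 0 fell in LP-1-eGFP cells and 1 rose and 1 fell in LP-1-cIAP2-eGFP cells. MAP2K3, a kinase that activates p38, rose in both, by 1.10 (adjusted p = 0.000375) and 0.97 (adjusted p = 0.000606). Of these kinases 3 rose and 1 fell in LP-1-cIAP2-eGFP cells without the dim array, and without untreated 24 h replicate 1 of LP-1-eGFP cells 1 rose and 0 fell in that line.

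**Figure D5:**
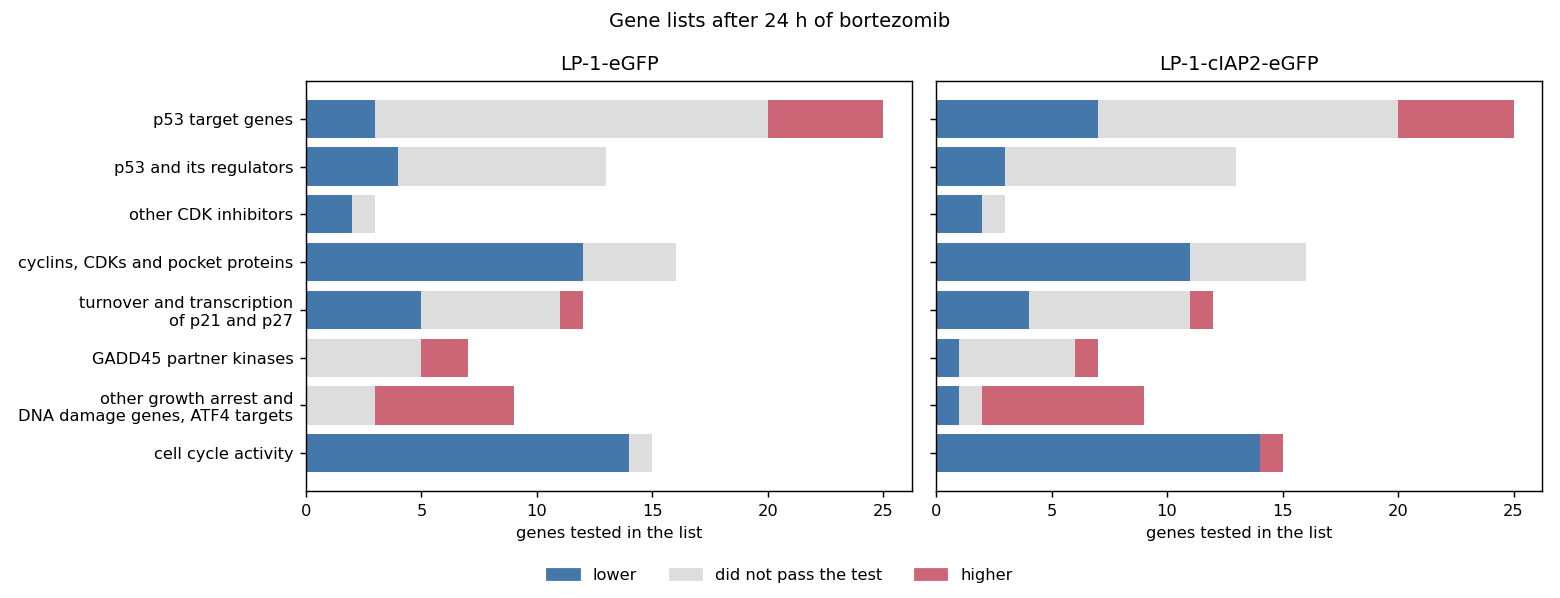
Number of genes of each list that were lower, did not pass the test or were higher with bortezomib at 24 h (adjusted p under 0.05), in each line; bar length is the number of genes tested. Cell cycle genes and cyclins are mostly lower (14 of 15 and 12 of 16 in LP-1-eGFP cells), the other growth arrest and ATF4 genes mostly higher (6 of 9 and 7 of 9), and p53 targets are divided.

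The genes with the pattern most like that of a member were sought among 9677 genes well above background on all arrays, by Pearson's r over the 8 condition means, which share arrays and normalization and are a description. GADD45A was nearest to COPB1 and RNMT (r of 0.996 for both), which changed by 0.59 and 1.01 at 24 h in LP-1-eGFP cells. GADD45G was nearest to FOCAD and MCFD2 (0.983 for both), CDKN2C to WDR36 and RBM12B (0.998 for both) and CDKN2D to RAD1 and C6orf52 (0.978 and 0.959). MDM2 was nearest to ENPP4 and CAND1 (0.994 and 0.992) and CDKN1B to DTL and SUCLA2 (0.941 and 0.94). None of these is in the lists above except DTL.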

How the data were processed

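According to the headers of the scanner files that the authors deposited, the intensity of each spot was extracted with Agilent Feature Extraction 10.7.3.1, which subtracts background and spatial trends. The authors also deposited log2 values, quantile normalized in GeneSpring per the methods and centred per probe, which served as an alternative. Spots marked as non-uniform or as population outliers were left out, the log2 intensities of each probe were averaged, and the 16 arrays were quantile normalized (limma 3.58.1, R 4.3.3). A probe was kept if any condition had both of its arrays well above background there (33731 probes). Probes were named through RefSeq accessions (55.7% matched). The brightest kept probe stands for a gene, and levels of different probes are not compared.

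One model gave each of the 8 conditions its mean (lmFit, contrasts.fit, eBayes; 1.61 prior degrees of freedom), with Benjamini-Hochberg adjustment over all probes. The code was tested on simulated data. The smallness of the groups (2 arrays) limits the precision. Genes to name were, from each list, the 2 largest rises and the 2 largest falls in the 24 h response averaged over the lines, among genes called in both lines, any gene called between the lines, and the 2 genes most like each member called at 24 h. The members and lists were chosen with earlier results of these data known, so the lists are no independent evidence. Alternatives covered scaling, background correction, filters, blocks, array weights, probe averaging, call rules and each array left out. SPATA18 and CCND1 fell below the filter and MAPK8 was not matched. At most 1 gene spot of an array was saturated. The list values without 1 of 2 arrays and the within-slide values were chosen after seeing the data. Some genes of the marker and pathway lists are not reported here.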

Additional observations from a re-analysis of the deposited data

How the results depend on the processing

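The counts of members called varied as follows. The share of all genes called under each of these settings is not given here. A changed count is therefore not a result about the members. At 6 h in LP-1-eGFP cells the count of 1 became 2 with probes well above background on all arrays alone or with a replicate block (CDKN2D added), and 4 with array weights. At 6 h in LP-1-cIAP2-eGFP cells the count of 1 became 0 with normexp, with no filter or with the slide as a block, 2 with probes well above background on all arrays alone or with the replicate block, and 3 with array weights. At 24 h the 4 in LP-1-eGFP cells and the 5 in LP-1-cIAP2-eGFP cells each became 2, GADD45A and GADD45G, under a limit of more than 2-fold, and the latter also 2 with array weights. The 4 also became 3 with no filter or with the probes of a gene averaged (CDKN1B lost). The 5 became 4 with normexp, with no filter or with the slide as a block (CDKN2D lost) and with probes averaged (MDM2 lost), and 6 by 75th percentile scaling (CDKN1A added). For the average line difference the count of 2 became 1 (CDKN1C) with normexp, with the authors' values or with the replicate block, 1 with array weights, where CDKN1A was called and both CDKN1C and GADD45G were not, 3 by 75th percentile scaling (CDKN1A added), and 0 with no filter, with the slide as a block or by an ordinary 3-way ANOVA. In an analysis modelled on the moderated t-test of the methods it was 2, CDKN1A and CDKN1C, without GADD45G. There the lines were taken as 2 groups of 8 arrays, a grouping chosen here, with a limit of more than 2-fold. The threshold there was an unadjusted p under 0.005 by limma's moderated test, and the adjusted p of CDKN1A was 0.0119. CDKN1A passed the filter on signal only through conditions of LP-1-cIAP2-eGFP cells. Its calls between the lines under these settings are thus no independent support for a difference. With 1 array left out the counts ranged from 0 to 3 at 6 h in each line, from 2 to 4 and from 4 to 5 at 24 h in LP-1-eGFP and LP-1-cIAP2-eGFP cells, from 0 to 3 for the average line difference and from 0 to 3 for the difference of the 24 h responses, where the 3 (CDKN2D, MDM2 and GADD45G) arose without LP-1-cIAP2-eGFP bortezomib 24 h replicate 2, which leaves the dim array alone and assumes that it varies like the other groups. The cause of these changes was not tested.

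The value that turned was that of MDM2 at 24 h in LP-1-cIAP2-eGFP cells, from 0.77 to -0.18 when its probes were averaged. Of 1404 values of single members under alternatives, 1298 kept their direction where called and their side of the threshold, 76 were no longer past it, 29 were newly past it and 1 turned. GADD45A at 24 h stayed past the threshold under every alternative run, as did GADD45G. In LP-1-eGFP and LP-1-cIAP2-eGFP cells GADD45A was at 2.99 to 3.20 and 3.60 to 4.16 under other settings and at 3.06 to 3.34 and 4.01 to 4.31 with 1 array left out, and GADD45G at 1.39 to 1.84 and 2.35 to 3.54, and at 1.45 to 2.24 and 3.14 to 3.93. Arrays of different conditions with the same replicate number shared little beyond the number: deviations from the condition means correlated by -0.113 to 0.236 over 28 pairs of conditions, with 7 over 0.1. No scaling moved the median of all genes by over 0.1 except at 24 h in LP-1-cIAP2-eGFP cells, where it was -0.16 by quantile and 0.03 by 75th percentile scaling. Rises made up 75.2% of all calls at 6 h in LP-1-cIAP2-eGFP cells, or 86.2% by 75th percentile scaling, and 76.5% of calls for the difference of the 24 h responses, or 58.0% with normexp and 57.1% with the authors' values. CDKN1A at 24 h in LP-1-cIAP2-eGFP cells was called by 75th percentile scaling (1.27, adjusted p = 0.0345). Dim readings limit CDKN1A most, at 8 of 16 arrays well above background.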

Other observations

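Of the listed genes outside the naming rule, chosen after their values were seen, CCNE1 (cyclin E1, a partner of CDK2) was the gene of the cyclin list that fell at 6 h in both lines, by 1.02 (adjusted p = 0.0106) in LP-1-eGFP cells and with a log2 fold change of -0.77 (adjusted p = 0.0499) in LP-1-cIAP2-eGFP cells. MAP2K6, a kinase that activates p38 as MAP2K3 does, had a log2 fold change of -3.28 (adjusted p = 0.00371) at 24 h in LP-1-cIAP2-eGFP cells and of -1.84 (adjusted p = 0.0686) in LP-1-eGFP cells, opposite in sign to MAP2K3. Without the dim array the former was -1.96 (adjusted p = 0.000263). RRM2, a subunit of ribonucleotide reductase, was the listed gene called in opposite directions at 24 h, with log2 fold changes of -0.62 (adjusted p = 0.0284) in LP-1-eGFP cells and 0.76 (adjusted p = 0.009) in LP-1-cIAP2-eGFP cells. The first was not called without untreated 24 h replicate 1 of LP-1-eGFP cells (-0.57, adjusted p = 0.117). Whether these responses differ between the lines is given by the test of the difference, in which 0 genes of the 8 lists passed in limma's test, of 17 genes called in all and 1429 with an unadjusted p under 0.05.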
